A study of Mus musculus with 2 samples.

Results

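The 9 genes described here encode parts of the contractile apparatus of smooth muscle: Acta2, Tagln, Myh11, Myl9, Cnn1, Tpm2, Des, Lmod1 and Smtn. They were chosen by symbol, and all 9 are among the 31053 genes listed in the deposited counts. Their UMIs (unique molecular identifiers, each counted as 1 RNA molecule) were followed across gated cell types and across the ND (control, chow) and HFD (high-fat and high-cholesterol) diets. Both groups were male C57BL/6 mice lacking Apoe (Apoe-/-), 16 weeks old. Each library pooled the cells of 2 aortas, so there was 1 library per diet, no difference between diets could be tested, and both values are given instead.

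In vascular smooth muscle, force is generated when smooth muscle myosin, switched on by phosphorylation of its regulatory light chain, pulls on filaments of smooth muscle actin. Calponin, transgelin and tropomyosin bind these actin filaments, leiomodin starts their assembly, smoothelin associates with them, and desmin forms the intermediate filaments that link them to the rest of the cell. Many of these genes are driven by serum response factor with its partner myocardin, through a short sequence called the CArG box, and smooth muscle cells of atherosclerotic arteries are known to lower them as they take up a matrix-producing state.

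The CArG box was looked for in the 250 bases upstream of each start site in the RefSeq promoters of build GRCm38.p6, on both strands and over the same length for all promoters, and 7 of the 9 genes had an entry; Tagln and Myh11 had none. A perfect match was present in 1.47% of 32851 promoters, and a match with 1 mismatch in its AT-rich centre in 7.24%. Of the 7 genes, Myl9 had 1 perfect and 1 near match and Acta2 had 2 near matches. The 4 windows are shown, with the match in capitals, because the levels of these genes are followed below.
Acta2, 84 bases upstream: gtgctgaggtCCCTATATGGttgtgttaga
Acta2, 34 bases upstream: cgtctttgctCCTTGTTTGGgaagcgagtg
Myl9, 161 bases upstream: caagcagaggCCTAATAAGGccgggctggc
Myl9, 99 bases upstream: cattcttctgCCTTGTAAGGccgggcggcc
The Acta2 windows are chr19:34255438-34255467 and chr19:34255388-34255417 on the minus strand, and the Myl9 windows are chr2:156775293-156775322 and chr2:156775355-156775384 on the plus strand. The Acta2 windows lie inside the gene as GENCODE M21 draws it, from 34241090 to 34255590, and the Myl9 windows lie before the GENCODE start at 156775420. A match describes the letters only, and no binding was measured.

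The libraries stood apart in quality. The study's filter (200 genes and 200 UMIs or more, mitochondrial share up to 30%) left 5416 of 10234 ND barcodes and 2739 of 14225 HFD barcodes. The kept barcodes held 27137322 and 17191279 UMIs, with medians of 3732.5 and 5336 UMIs per barcode, and median mitochondrial shares of 16.8% and 21.9%. Only 1 kept barcode sequence occurred in both libraries. Cell types were set by gates that used none of the 9 genes. A barcode was called mural with UMIs of at least 3 of 9 general mural markers such as Rgs5 and Notch3, or at least 3 of 11 smooth muscle markers such as Mylk and Synpo2. Barcodes passing the second list are called smooth muscle-gated here, and pericyte-gated barcodes passed only the first list together with at least 2 of Abcc9, Kcnj8, Higd1b and Vtn.

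Mural barcodes numbered 315 in ND, 5.82% (5.21% to 6.47%) of kept barcodes, and 193 in HFD, 7.05% (6.12% to 8.07%). Values in parentheses are exact 95% intervals, which cover counting error only and not the spread between mice. Smooth muscle-gated barcodes numbered 125 and 62, pericyte-gated barcodes 80 and 79, and other mural barcodes 110 and 52. Markers of other cells ran through these groups. UMIs of both endothelial genes Pecam1 and Cdh5 were found in 42.2% of ND and 68.4% of HFD mural barcodes, and 160 and 56 mural barcodes also passed the fibroblast gate. Among smooth muscle-gated barcodes 21 and 14 passed it, and the 8 fibroblast markers summed to 1708 CPM in ND and 9654 CPM in HFD there, with Dcn the most abundant in ND and Col1a2 in HFD. The endothelial gate was passed by 84 ND and 42 HFD smooth muscle-gated barcodes. There the 8 endothelial markers summed to 5734 CPM in ND and 4155 CPM in HFD, over all smooth muscle-gated barcodes, led by Pecam1 in both. The 6 erythroid markers summed to 109 CPM (UMIs of a gene, or of a list, scaled to 1e+06 UMIs of the group) in ND and 10477 CPM in HFD smooth muscle-gated barcodes, with Bpgm the most abundant in ND and Hbb-bs in HFD. Only 33 ND and 8 HFD mural barcodes passed no other gate. The part of these other RNAs in the results below was not tested. Values are given for mural barcodes that passed no other gate, that passed the endothelial gate alone, and that lay outside the fibroblast gate. With mitochondrial, haemoglobin and ribosomal genes left out of CPM, the median log2 HFD to ND ratio of the 9 genes in mural barcodes was -0.30. Acta2 was then at -0.11 and Tagln at 0.28.

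Of the 9 genes, 8 were at least 2-fold higher in mural than in other barcodes of both libraries, and Smtn was higher by less than 2-fold. Mural barcodes held 64.6% of all UMIs of the 9 genes in ND and 73.4% in HFD, and without Smtn 80.2% and 86.9%. In ND, these 8 of 9 genes stood against 8.26% of 12867 genes tested that were at least 2-fold higher, and in HFD against 6.62% of 11277 genes. The median log2 ratio of the 9 genes was 5.22 in ND and 5.85 in HFD, and that of all genes tested was 0.08 and 0.14.

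Myh11, the smooth muscle myosin heavy chain (ENSMUSG00000018830, chromosome 16, 14194535 to 14291372), was the most confined of the 9 genes by the mural share of its UMIs in ND, with 808 of 851 in mural barcodes, and ranked next to Cnn1 in HFD, with 217 of 232. Its mural level was 345 CPM against 1.73 CPM in all other ND barcodes, and 135 against 0.962 CPM in HFD. Cnn1, calponin 1 (ENSMUSG00000001349, chromosome 9, 22099216 to 22109630), had 114 UMIs in the whole ND library and 63 in HFD, of which 88.6% and 93.7% were mural. Acta2, smooth muscle alpha actin (ENSMUSG00000035783, chromosome 19), had 80.9% of 4162 ND UMIs and 89.8% of 2244 HFD UMIs in mural barcodes. The other actin-binding genes, Tagln (transgelin, ENSMUSG00000032085, chromosome 9, 45929619 to 45936058) and Tpm2 (beta-tropomyosin, ENSMUSG00000028464, chromosome 4, 43514711 to 43523765), had mural shares of 76.8% and 82.3% in ND and 85.9% and 85.6% in HFD.

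Myl9, the regulatory light chain of smooth muscle myosin (ENSMUSG00000067818, chromosome 2, 156775420 to 156781658), was mural for 77.9% of 1531 ND UMIs and 81.5% of 550 HFD UMIs. Lmod1, leiomodin 1 (ENSMUSG00000048096, chromosome 1, 135324807 to 135368065), was mural for 73.7% and 82.4%. Des, desmin (ENSMUSG00000026208, chromosome 1, 75360329 to 75368579), was mural for 64.8% and 58.3%. Des was also the gene of these 8 with the smallest ratio of mural to other barcodes, 19.5-fold in ND and 13.6-fold in HFD.

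**Figure D1:**
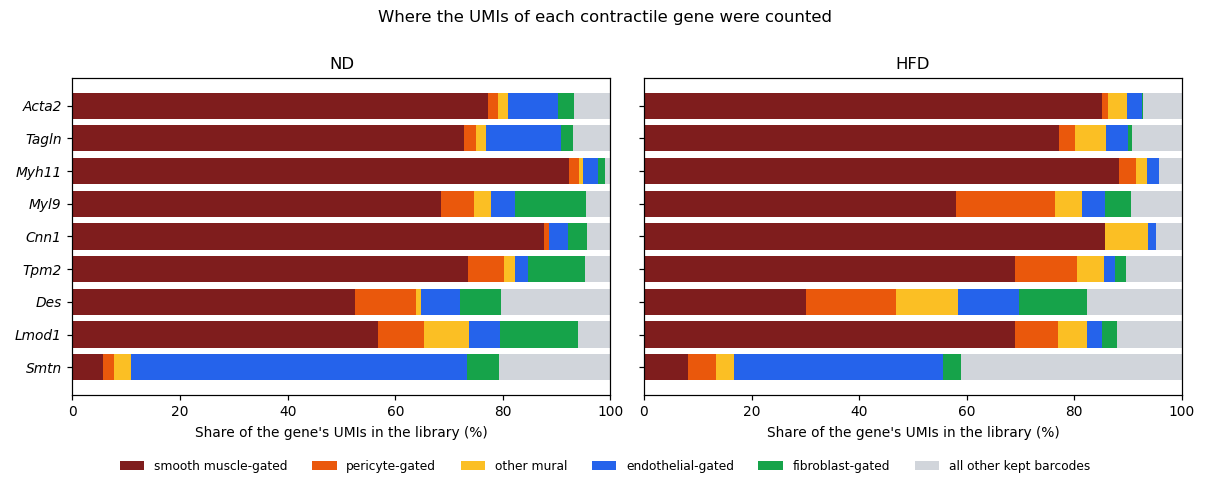
Share of each gene's UMIs, in percent of its UMIs in all kept barcodes of a library, counted in smooth muscle-gated, pericyte-gated, other mural, endothelial-gated, fibroblast-gated and all other barcodes, for ND (left) and HFD (right). Smooth muscle-gated barcodes held 92.2% of ND and 88.4% of HFD Myh11 UMIs, while endothelial-gated barcodes held 62.4% of ND and 38.9% of HFD Smtn UMIs.

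Smtn, smoothelin (ENSMUSG00000020439, chromosome 11, 3517523 to 3540612), had 62.4% of its ND UMIs in endothelial-gated barcodes. In HFD it was 38.9%, or 534 of 1374 UMIs, and mixed barcodes, which passed several gates outside the mural ones, held 552. Over all mural barcodes it stood at 149 CPM in ND and 144 CPM in HFD, against 115 and 73.3 CPM in other barcodes. Its level was 208 (199 to 217) CPM in endothelial-gated ND barcodes and 144 (124 to 166) CPM in smooth muscle-gated ones. In HFD these levels were 136 (124 to 148) and 167 (137 to 200.5) CPM, so the intervals lay apart in ND and overlapped in HFD. Macrophage-gated barcodes, taken as the background, had 5.23 and 2.03 CPM. Within the endothelial gate, a split was chosen after values were seen. One side held barcodes with Gpihbp1, which anchors lipoprotein lipase in capillaries, but no Vwf or Vcam1, called Gpihbp1 alone here. The other held barcodes with Vwf and Vcam1 but no Gpihbp1. The remaining 249 ND and 71 HFD endothelial-gated barcodes were in neither. Smtn stood at 237 (226 to 249) CPM in the 1727 ND barcodes with Gpihbp1 alone and at 43.6 (32.0 to 57.9) CPM in the 149 of the other kind. In HFD the levels were 146 (133 to 159.96) CPM in 587 barcodes and 46.8 (25.6 to 78.6) CPM in 42 barcodes. Of the ND barcodes with Gpihbp1 alone, 52.1% had a UMI of Smtn at a median depth of 3159 UMIs, and 19.98% after thinning to 1000 UMIs with 5 shallower barcodes left out. Of ND macrophage-gated barcodes, with a median of 4391 UMIs, 2.56% had one, and 0% of 349 after thinning.

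The same split ordered Acta2 and Tagln the other way. Acta2 was at 277 (247 to 310.5) CPM in ND endothelial barcodes with Vwf and Vcam1 and at 3.88 (2.58 to 5.60) CPM in those with Gpihbp1 alone. The latter was close to the 3.49 (1.28 to 7.59) CPM of macrophage-gated barcodes. Tagln was at 248 CPM and 7.48 CPM. Both genes were lower in the HFD barcodes with Vwf and Vcam1, Acta2 at 60.2 (35.7 to 95.2) CPM and Tagln at 77.0 (48.8 to 115.5) CPM. Myh11 and Des did not accompany them, with no UMI in these barcodes in either library, and Myl9 stood at 17.6 CPM in ND, from 19 UMIs, and had none in HFD. At 3 UMIs, a level of 2.78 CPM in ND or 10.04 CPM in HFD would have been counted, while Myh11 stood at 624 CPM in ND smooth muscle-gated barcodes. For each 100 Acta2 UMIs there were 89.6 Tagln UMIs and 0 Myh11 UMIs (exact upper limit 1.24) in the ND endothelial barcodes with Vwf and Vcam1, against 65.2 and 24.4 in the smooth muscle-gated ones. Of the markers of the mural gates, the 9 general ones summed to 65.8 CPM in these ND endothelial barcodes, with 4 at 0 and Pdgfrb, a growth factor receptor, the most abundant at 44.5 CPM, against 1740.3 CPM in smooth muscle-gated barcodes. The 11 smooth muscle markers summed to 181 CPM, with 5 at 0 and Sncg the most abundant at 90.9 CPM, against 1620.4 CPM. Rgs5 stood at 2.78 against 878 CPM, and Pdgfrb and Sncg at 1.11 and 22.7 CPM in the ND barcodes with Gpihbp1 alone. The 8 fibroblast markers summed to 910 CPM in ND and 743 CPM in HFD endothelial barcodes with Vwf and Vcam1, led by Dcn. In ND, Dcn stood at 673 CPM there and at 22.3 CPM in barcodes with Gpihbp1 alone. The part of this RNA in the Acta2 and Tagln values was not tested. The ND Acta2 UMIs were unevenly spread, with 188 of 299 in 10 barcodes.

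**Figure D2:**
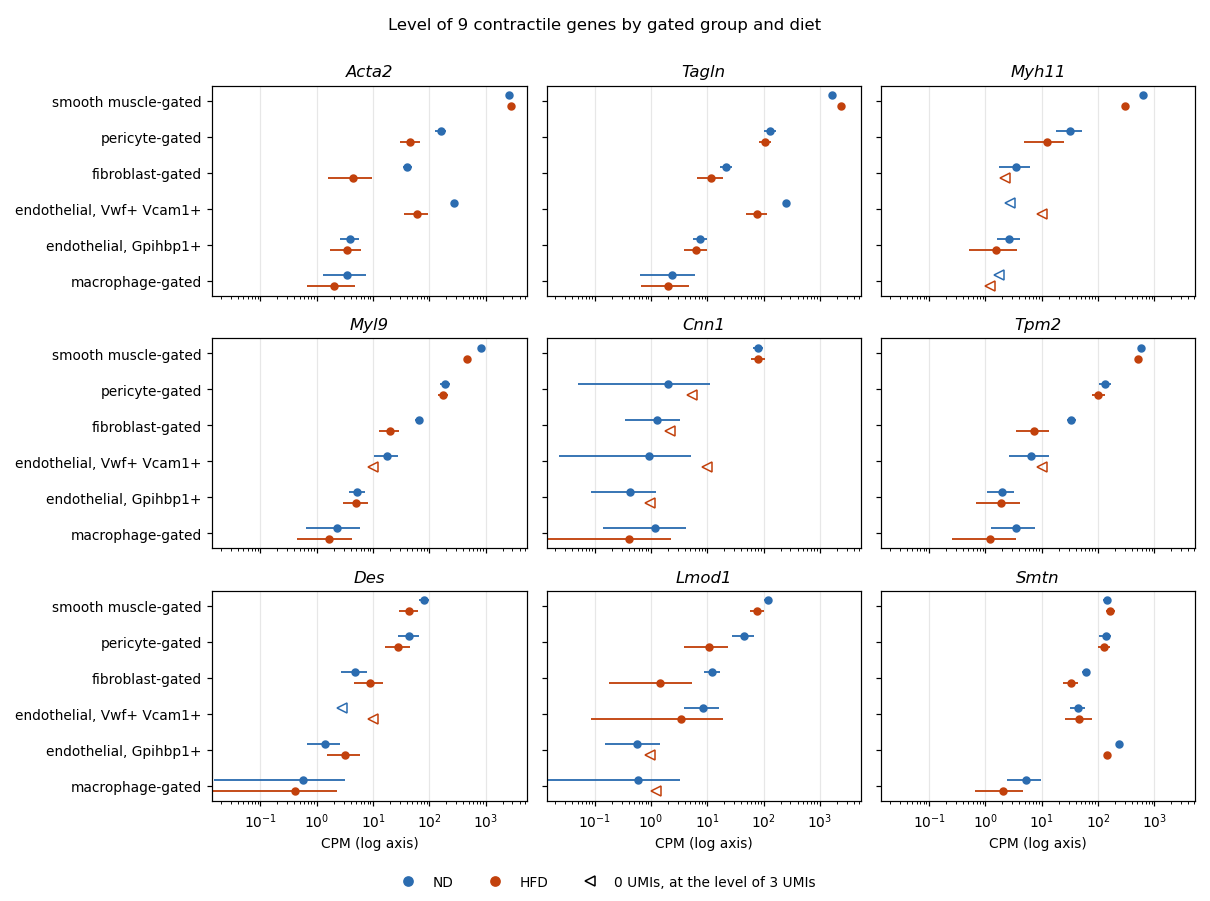
Level of each gene in CPM (log axis) in 6 gated groups, ND in blue and HFD in orange, with exact 95% Poisson intervals; open triangles mark groups with 0 UMIs and stand at the level that 3 UMIs would give. Smooth muscle-gated barcodes lead for all 9 genes in HFD, for Smtn with overlapping intervals, and for all but Smtn in ND. Acta2 and Tagln, but not Myh11 or Des, are also seen in endothelial barcodes with Vwf and Vcam1.

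Pericyte-gated barcodes held less of most of the 9 genes than smooth muscle-gated ones. In ND, 7 of 9 genes were at least 2-fold higher in smooth muscle-gated than in pericyte-gated barcodes, against 7.23% of 5363 genes tested. In HFD it was 7 of the 8 genes with at least 50 UMIs, against 10.2% of 3863 genes. Myh11 was at 32.1 (18.3 to 52.1) CPM in ND pericyte-gated barcodes and at 12.3 (4.95 to 25.4) CPM in HFD, where smooth muscle-gated barcodes had 624 and 305 CPM. Cnn1 had 1 UMI in 80 ND pericyte-gated barcodes and none in 79 HFD ones, where 3 UMIs would be 5.27 CPM. Des and Smtn did not reach 2-fold in ND: Des stood at 81.8 against 44.1 CPM, and 12 of the 22 pericyte Des UMIs came from 1 barcode. Smtn stood at 144 against 136 CPM, with overlapping intervals.

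Between diets, the pericyte-gated level of Acta2 was 160.5 (127 to 199.7) CPM in ND and 45.7 (29.9 to 67.0) CPM in HFD, a log2 ratio of -1.81 (-2.51 to -1.16). Lmod1 was at 44.1 and 10.5 CPM, a log2 ratio of -2.06 (-3.66 to -0.72) that rests on 22 and 6 UMIs. Myh11, from 16 and 7 UMIs, had a log2 ratio of -1.38 with an interval from -2.91 to -0.02. The intervals of Tagln, Myl9, Tpm2, Des and Smtn reached across 0, and Myl9 stood at 191 and 178 CPM. The make-up of the pericyte-gated barcodes also differed. The fibroblast gate was passed by 48 of the 80 ND and 22 of the 79 HFD ones and the endothelial gate by 28 and 58, and the fibroblast markers summed to 14488 and 3710.1 CPM, led by Dcn in both, and the erythroid markers to 2341 and 13544 CPM. The part of these RNAs in the pericyte values was not tested. In kept pericyte-gated barcodes the level of actin thus differed between the libraries beyond counting error, and a difference in the light chain was not detectable at this depth. The HFD levels of actin and of the light chain depended on the filter, and no ratio was taken over kept and removed pericyte-gated barcodes together. With mitochondrial UMIs left out of the total, Acta2 stood at 184 (146 to 229) CPM in the 80 kept ND barcodes and at 56.5 (36.9 to 82.8) CPM in the 79 kept HFD ones, but at 252 (181 to 340.1) CPM in the 114 HFD pericyte-gated barcodes that the filter removed. The 12 removed ND ones had no Acta2 UMI, where 3 UMIs would be 173 CPM. By the same totals, Myl9 stood at 218 (177 to 267) CPM in the kept ND and 219.6 (179 to 267) CPM in the kept HFD barcodes. It stood at 701 (580 to 840) CPM in the removed HFD ones and at 231 (63.0 to 592) CPM in the removed ND ones, the last from 4 UMIs. Of ND Acta2 UMIs in pericyte-gated barcodes, 65 of 80 came from 10 barcodes, and without the HFD barcode highest in Acta2 the HFD level was 28.5 CPM. Wherever 1 HFD barcode is left out, here and below, ND kept all its barcodes, so only the HFD side was trimmed. Of 5 genes with at least 50 UMIs, 1 was at least 2-fold lower in HFD, against 8.10% of 3458 genes.

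Over all mural barcodes, HFD levels of the myosin genes and of leiomodin were below those of ND, while those of actin, transgelin and smoothelin lay nearer to each other. For actin and transgelin this depended on the barcodes used, as given below. Myh11 stood at 345 (321 to 369) CPM in ND and 135 (118 to 154) CPM in HFD, a log2 ratio of -1.35 (-1.57 to -1.13). Lmod1 stood at 82.3 (71.1 to 94.8) and 38.0 (29.1 to 48.8) CPM, a log2 ratio of -1.12 (-1.56 to -0.69). These 2 of 9 genes were at least 2-fold lower in HFD, against 6.00% of 8140 genes tested, and 0 of 9 were 2-fold higher, against 2.25%. Myl9 stood at 508 and 279 CPM, a log2 ratio of -0.87 (-1.03 to -0.71), and Des at 54.2 and 34.9 CPM, a log2 ratio of -0.64 (-1.12 to -0.17). Acta2 stood at 1436 and 1255 CPM and Tagln, the only gene above ND, at 943 and 1085 CPM. Without the HFD barcode highest in Acta2, of 61381 UMIs, HFD Tagln stood at 880 CPM, below ND, and Acta2 at 1064 CPM. Tpm2 stood at 351 and 270 CPM, and the intervals of Cnn1 and Smtn reached across 0. The median log2 ratio of the 9 genes was -0.38, and that of all genes tested was -0.09. Leaving out mural barcodes that passed the fibroblast gate, a choice made after seeing the data, turned the sign for Tagln. Its log2 ratio went from 0.20 to -0.92, and that of Acta2 from -0.19 to -1.10. Since a mural gate mixes cell types and depths, fewer muscle cells in the group and less RNA of a gene per cell cannot be told apart in these sums.

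In smooth muscle-gated barcodes alone, transgelin was higher in HFD and the myosin genes lower, and actin was higher by an amount that rested on 1 barcode. Acta2 stood at 2550.5 (2463 to 2640.3) CPM in ND and 2840.1 (2714 to 2970.5) CPM in HFD, and Tagln at 1663 (1593 to 1736) and 2325 (2212 to 2444) CPM. Without the HFD barcode of 61381 UMIs, Acta2 stood at 2517 CPM in HFD, a log2 ratio of -0.02 (-0.11 to 0.07), and Tagln was still higher, at 1932 CPM. Myh11 stood at 624 (581 to 669) and 305 (265 to 350) CPM, Myl9 at 832 (783 to 884) and 475 (424 to 530) CPM. Des stood at 81.8 and 43.1 CPM and Lmod1 at 118 and 75.9 CPM, both with intervals below 0 on the log2 scale. Tpm2, Cnn1 and Smtn were not distinguishable at this depth, at 584 and 519, 79.4 and 80.3, and 144 and 167 CPM. Of 9 genes, 1 (Myh11) was at least 2-fold lower, against 5.92% of 5611 genes tested.

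**Figure D3:**
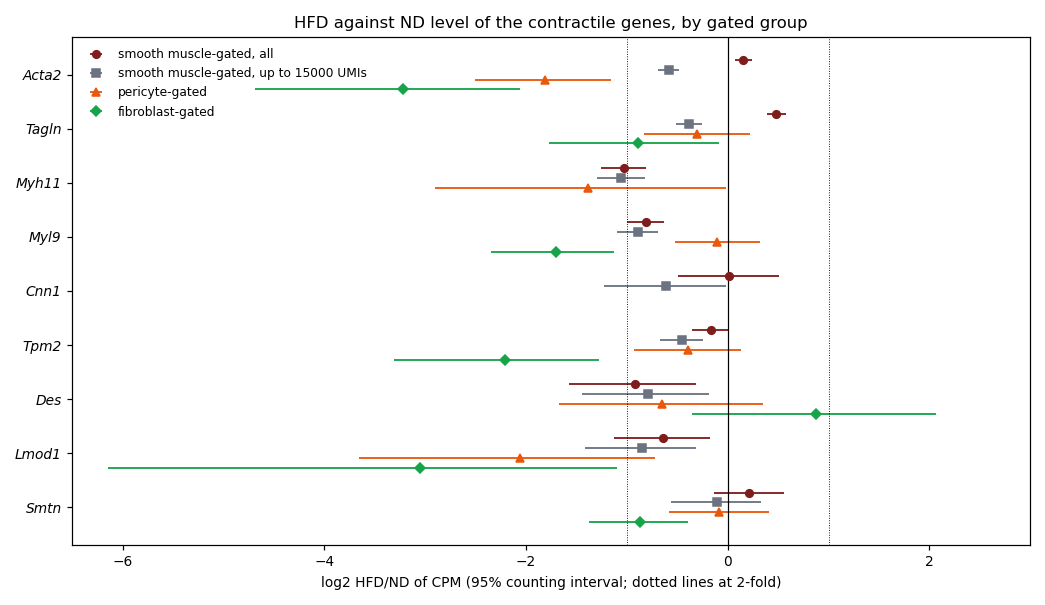
Log2 ratio of HFD to ND CPM for each gene with its 95% counting interval, in smooth muscle-gated barcodes (circles), those of them with up to 15000 UMIs (squares), pericyte-gated (triangles) and fibroblast-gated barcodes (diamonds); ratios with a count of 0 are left out. Acta2 and Tagln lie above 0 over all smooth muscle-gated barcodes and below 0 in those of up to 15000 UMIs, and Myh11 is below 0 in all groups drawn.

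The sign for Acta2 and Tagln depended on a few very deep barcodes. Among smooth muscle-gated barcodes, 23 in ND and 12 in HFD had more than 15000 UMIs, a limit chosen after the data were seen. Without them, all 9 HFD levels were below those of ND, 8 of them with intervals below 0 and Smtn, at 190.5 and 176.5 CPM, not distinguishable, with Acta2 at 3995 and 2664 CPM and Tagln at 2516 and 1930.3 CPM. The median log2 ratio was -0.61, and that of all 3530 genes tested was -0.10. Of these 9 genes, 1 was at least 2-fold lower, against 5.27% of 3530 genes tested. Myh11 kept its ratio, at 1061 and 509.9 CPM, a log2 ratio of -1.06 (-1.30 to -0.82). The deep barcodes themselves differed between libraries. In the 23 of ND, Acta2 was at 591 CPM, Myh11 at 29.9 CPM, and 95.7% had UMIs of both Pecam1 and Cdh5. In the 12 of HFD, Acta2 was at 3039 CPM, Tagln at 2773 CPM, Myh11 at 73.0 CPM and Des at 0, and 58.3% had both endothelial genes.

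The 12 deep HFD barcodes were rich in matrix RNA, by genes chosen after their values were seen. Fn1 (fibronectin) was at 6602 CPM in them and 1460 CPM in the other 50 HFD smooth muscle-gated barcodes, Col1a1 (collagen I) at 4400.3 and 619 CPM, and Thbs1 (thrombospondin 1) at 2487 and 448 CPM. Timp1, an inhibitor of matrix-degrading proteases, was at 1056 and 188 CPM. In the 23 deep ND barcodes, Fn1 was at 1327, Col1a1 at 39.3 and Timp1 at 14.97 CPM. Igfbp5, a binding protein of insulin-like growth factors, was at 1129 CPM in the shallower and 335 CPM in the deep ND barcodes, and at 417 and 50.8 CPM in those of HFD. The gates do not remove doublets, and among smooth muscle-gated barcodes, 20 in ND and 12 in HFD were among the highest 6% of doublet scores of their library.

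Single barcodes showed the same contrast. At least 50 Acta2 UMIs were found in 25 ND and 14 HFD barcodes, and 1 in ND and 7 in HFD of them had more than 15000 UMIs. The deepest HFD barcode, of 61381 UMIs, held 372 Acta2, 383 Tagln, 12 Myh11 and 0 Des UMIs together with 969 Fn1 and 405 Col1a1 UMIs. It alone gave 19.5% of the Acta2 UMIs of HFD smooth muscle-gated barcodes. A shallow ND barcode of 7751 UMIs held 168 Acta2, 87 Tagln, 67 Myh11 and 16 Des UMIs with no Fn1 or Col1a1. At the other end of HFD, a barcode of 5624 UMIs held 50 Acta2 and 20 Myh11 UMIs with 4 of Fn1. For each 100 Acta2 UMIs, ND barcodes held between 4.76 and 57.4 Myh11 UMIs, with a median of 22.5, and HFD barcodes between 0 and 40, with a median of 5.65. The ranges overlapped, and 5 of 25 ND and 8 of 14 HFD barcodes had under 10. The 7 deep HFD barcodes carried most of this gap: up to 15000 UMIs, 4 of 24 ND and 1 of 7 HFD barcodes had under 10, with medians of 23.5 and 15.9. At least 20 Fn1 UMIs were found in 1 of the 25 ND and 9 of the 14 HFD barcodes, and at least 20 Col1a1 UMIs in 0 and 8, at median depths of 6761 and 14045 UMIs. Up to 15000 UMIs, both genes passed that number in 0 of 24 ND and 2 of 7 HFD barcodes. Transgelin followed actin in both libraries, with 59.5 Tagln UMIs for each 100 Acta2 UMIs in the ND barcodes and 81.1 in HFD.

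**Figure D4:**
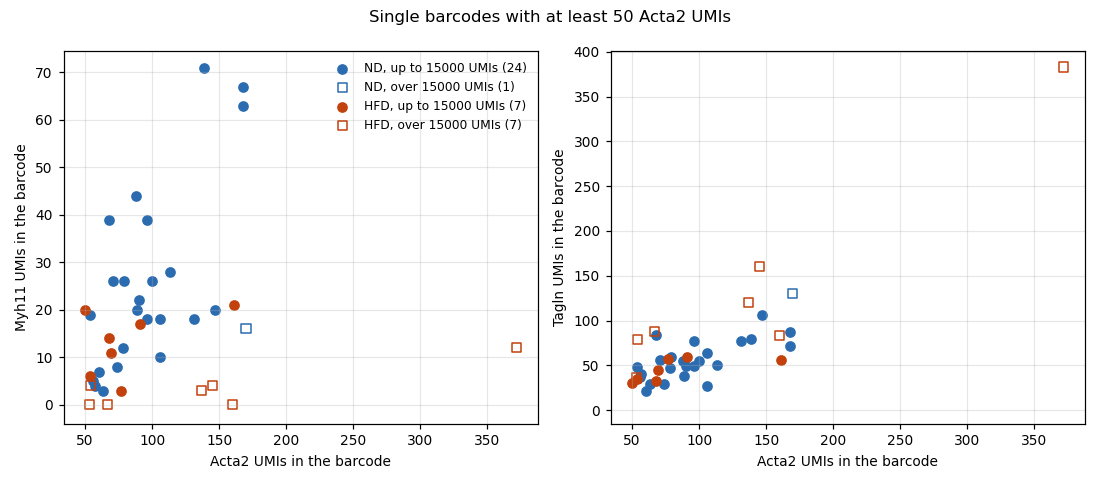
Myh11 (left) and Tagln (right) UMIs against Acta2 UMIs in each barcode with at least 50 Acta2 UMIs, 25 in ND (blue) and 14 in HFD (orange); filled circles have up to 15000 UMIs and open squares more. The 7 deep HFD barcodes hold between 0 and 12 Myh11 UMIs and up to 383 Tagln UMIs, while ND barcodes reach 71 Myh11 UMIs.

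Counted against Acta2 in smooth muscle-gated barcodes, 6 of the other 8 genes differed between the libraries with intervals that did not overlap. Tagln was higher in HFD, with 65.2 and 81.9 UMIs for each 100 Acta2 UMIs, and Myh11, Myl9 (32.6 and 16.7), Tpm2 (22.9 and 18.3), Des (3.21 and 1.52) and Lmod1 (4.64 and 2.67) were lower. Cnn1 and Smtn did not differ beyond counting error, with 3.11 and 2.83 Cnn1 UMIs and 5.64 and 5.87 Smtn UMIs for each 100 Acta2 UMIs. In all smooth muscle-gated barcodes there were 24.4 (22.6 to 26.4) Myh11 UMIs for each 100 Acta2 UMIs in ND and 10.7 (9.25 to 12.4) in HFD. With up to 15000 UMIs the numbers were 26.6 (24.5 to 28.8) and 19.1 (16.2 to 22.4), so the gap was smaller and the intervals still did not overlap. In these shallower barcodes the intervals of the other 7 genes overlapped. Those of Myl9 met only at their ends, at 33.5 (31.157 to 36.1) and 27.1 (23.55 to 31.163). Tagln was at 63.0 (59.4 to 66.8) and 72.5 (65.6 to 80.0). Tpm2 was at 24.5 and 26.8, Des at 3.52 and 3.05, and Lmod1 at 4.66 and 3.89. Overlap of 2 separate intervals does not show equal levels, and no interval was taken for the ratio of these numbers. In the mural barcodes that passed no other gate, 33 in ND and 8 in HFD, the Myh11 numbers were 30.3 (27.4 to 33.4) and 17.97 (12.8 to 24.7). However, 1 HFD barcode held 161 of the 256 Acta2 UMIs, and without it the HFD number was 26.3 (16.2 to 41.2), not distinguishable from ND. Those barcodes had higher levels than all smooth muscle-gated barcodes together: Acta2 stood at 10988.5 (10472 to 11524) CPM in ND and 8141 (7174 to 9201) CPM in HFD, and Myh11 at 3326 and 1463 CPM. Without that barcode, HFD Acta2 stood at 3885 CPM and Myh11 at 1022 CPM. With or without it, Acta2, Tagln, Myh11, Myl9, Tpm2 and Lmod1 were lower in HFD with intervals below 0. Cnn1, from 31 and 18 UMIs, and Smtn, from 33 and 24, were higher with it, at 201 and 572 CPM and at 214 and 763 CPM, and without it stood at 204 and 409 CPM in HFD, from 5 and 10 UMIs, with intervals across 0. Of the 8 genes with at least 50 UMIs, 2 were at least 2-fold lower, against 20.4% of 506 genes, and 1 at least 2-fold higher, against 5.93%.

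The direction differed among the remaining mural barcodes. In the 86 ND and 70 HFD mural barcodes that also passed the endothelial gate alone, Myh11 stood at 211 and 93.9 CPM, a log2 ratio of -1.17 (-1.66 to -0.70), and Acta2 at 948 and 779 CPM. Without the HFD barcode highest in Acta2, Acta2 stood at 507 CPM in HFD, a log2 ratio of -0.90 (-1.12 to -0.69), and Myh11 at 102 CPM. The ND barcode highest in Acta2, with 170 of the 741 ND Acta2 UMIs here, was kept, and the ratio without both was not computed. Among those that passed another gate or several, 196 in ND and 115 in HFD, Acta2 was higher in HFD, at 661 and 1281 CPM, a log2 ratio of 0.95 (0.83 to 1.08). Tagln was higher as well, at 417 and 1170 CPM (1.49, 1.34 to 1.63), and so was Tpm2, at 158 and 236 CPM (0.58, 0.32 to 0.85). Myh11 stood at 92.3 and 116 CPM there, a log2 ratio of 0.33 with an interval from -0.04 to 0.69, so its lower HFD level was not seen in these barcodes. The median log2 ratio of the 8 genes with at least 50 UMIs was 0.20, beside -0.07 for all 6500 genes tested. Deep barcodes carried the higher actin and transgelin levels here too. Without those over 15000 UMIs, which left 176 and 96, Acta2 stood at 902 and 787 CPM, a log2 ratio of -0.20 (-0.36 to -0.03), the intervals of Tagln, Tpm2 and Myh11 reached across 0, with Myh11 at 135 and 158 CPM, and the median was -0.27. In other mural barcodes, which are neither smooth muscle-gated nor pericyte-gated, Tagln stood at 85.1 and 323 CPM and Acta2 at 129 and 222 CPM, but 1 HFD barcode of 21084 UMIs held 88 of the 118 Tagln and 67 of the 81 Acta2 UMIs. Without it, Tagln stood at 87.2 CPM and Acta2 at 40.7 CPM in HFD, the latter a log2 ratio of -1.67 (-2.61 to -0.84).

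A gate built from the genes themselves gave a similar order. For each gene, barcodes with UMIs of at least 3 of the other 8 genes were taken, between 159 and 227 in ND and between 84 and 121 in HFD. For Acta2, 107 of 169 ND and 79 of 98 HFD barcodes taken were also mural, so this was not an independent check. By this gate Myh11 had the lowest log2 ratio of HFD to ND, -1.54 (-1.76 to -1.32), followed by Lmod1 at -1.36, Myl9 at -1.35 and Des at -1.13. Acta2 was at -0.40 (-0.48 to -0.32) and Tagln at -0.15 (-0.24 to -0.06), so both were below ND here. Smtn was at 0.31 with an interval across 0.

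The genes were often found in the same barcodes. UMIs of at least 4 of the 9 genes were present in 50.4% of ND and 56.5% of HFD smooth muscle-gated barcodes, and in 32.8% and 27.4% after thinning, with none left out. In pericyte-gated barcodes the shares were 20% and 22.8%, and 1.25% and 0% after thinning. In macrophage-gated barcodes, with medians of 4391 and 5584.5 UMIs, they were 0 of 351 and 0 of 376. Across the 125 ND smooth muscle-gated barcodes, Spearman's rho was 0.82 between Acta2 and Tagln and also between Myl9 and Tpm2. It was 0.17 between Acta2 and Smtn and 0.29 between Acta2 and Des. In the 62 HFD barcodes rho was 0.78 between Acta2 and Tagln, 0.58 between Acta2 and Myh11, and 0.11 between Acta2 and Lmod1. These are descriptions of barcodes that share a library and differ in depth.

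Fibroblast-gated barcodes, a smaller source, had lower levels of several genes in HFD. Acta2 stood at 40.8 (34.05 to 48.5) CPM in 809 ND barcodes and at 4.38 (1.61 to 9.54) CPM in 309 HFD barcodes, the latter within the 0.659 to 4.74 CPM interval of HFD macrophage-gated barcodes. Myl9 stood at 64.4 and 19.7 CPM, Tpm2 at 33.8 and 7.30 CPM and Lmod1 at 12.1 and 1.46 CPM, the last from 38 and 2 UMIs. Of 5 genes with at least 50 UMIs, 3 were at least 2-fold lower, against 5.26% of 8083 genes. In ND these UMIs were denser in barcodes with Fmod (fibromodulin), a split chosen after values were seen. Acta2 was at 142 CPM in the 156 ND fibroblast-gated barcodes with an Fmod UMI and 20.3 CPM in the 653 without, Myl9 at 158 and 45.6 CPM, and Lmod1 at 47.5 and 4.98 CPM. Only 11 of 309 HFD fibroblast-gated barcodes had Fmod. In barcodes without Fmod, Acta2 was still lower in HFD, at 20.3 and 2.99 CPM, a log2 ratio of -2.76 (-4.69 to -1.32). Myh11, from 11 ND UMIs, and Cnn1, from 4, had no UMI in HFD fibroblast-gated barcodes.

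Summed over all kept barcodes, which include no gate, Acta2 was at 153 (149 to 158) CPM in ND and 131 (125 to 136) CPM in HFD, Tagln at 106 and 118 CPM (96.0 without the HFD barcode of 61381 UMIs), and Myh11 at 31.4 (29.2 to 33.5) and 13.5 (11.8 to 15.3) CPM. Smtn was at 118 and 79.9 CPM. Myh11 and Lmod1 were the 2 of 9 genes at least 2-fold lower in HFD, against 9.20% of 13523 genes tested, and the median log2 ratio was -0.37 beside -0.17 for all genes.

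Of 56 other genes of the contractile pathway listed, 54 were found by symbol and 51 had at least 50 UMIs over mural barcodes, 7 of them gate markers. In HFD, 7 were at least 2-fold lower and 1 at least 2-fold higher than in ND, against the 6.00% and 2.25% of all genes given above. The median log2 ratio was -0.24, and 37 of 51 ratios were below 0. The median of all 8140 genes tested was -0.09, so most of those lay below 0 as well. The 5 lowest were Fhl2, a LIM protein, at -3.15 (22.2 to 2.49 CPM), Pln, the phospholamban that restrains the calcium pump, at -2.69 (36.3 to 5.60 CPM), Pgm5, a protein of adherens junctions, at -2.01 (50.3 to 12.5 CPM), Pdlim3, an actinin-binding protein, at -1.85 (74.2 to 20.5 CPM), and Itga8, the integrin alpha 8 and a gate marker, at -1.67 (55.4 to 17.4 CPM). Of the 5 highest, 4 are given: Actg2, smooth muscle gamma actin and a gate marker, at 1.19 (25.6 to 58.5 CPM), the tropomyosin Tpm4 at 0.62 (490.02 to 752 CPM), Kcnmb1, a potassium channel subunit and a gate marker, at 0.30 (13.6 to 16.8 CPM) and Rhoa, the small GTPase upstream of myosin phosphorylation, at 0.28 (434 to 525 CPM). The interval of Kcnmb1 reached across 0, and those of the other 8 genes given did not. Of the HFD Actg2 UMIs in smooth muscle-gated barcodes, 83 of 86 lay in the 12 deep ones. Srf, which encodes serum response factor and falls outside those named by rule, was at 107 and 43.0 CPM, a log2 ratio of -1.32 (-1.72 to -0.93).

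**Figure D5:**
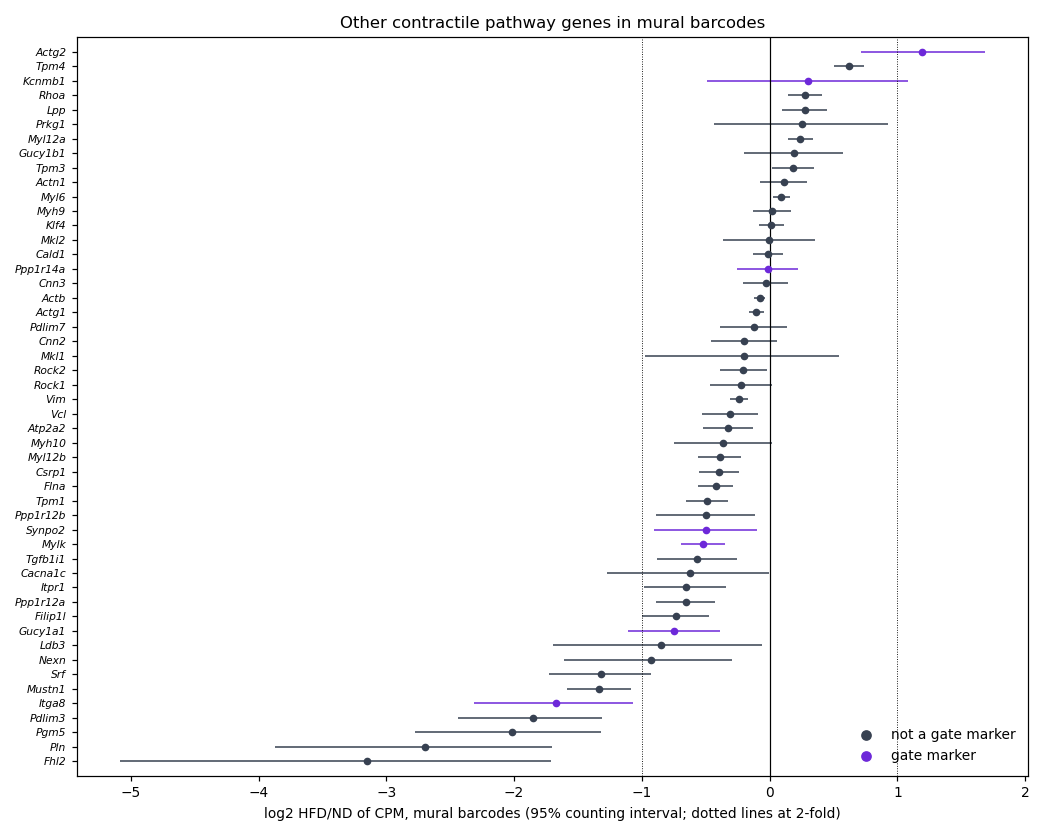
Log2 ratio of HFD to ND CPM in mural barcodes for 50 of the 51 pathway genes with at least 50 UMIs, in order, with 95% counting intervals; gate markers are purple and dotted lines mark 2-fold. Most points lie below 0, with 7 genes left of the lower line and Actg2 right of the upper one.

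Over 23 cell types and libraries, the levels of the 9 genes were set beside those of 10707 genes, as Pearson's r of log2(CPM + 10) with the mean of the 9 genes. The most alike outside the gates were Gm13889 (r = 0.93), Rgs4 (0.87), Nexn (0.87), Fam107a (0.87), Frzb (0.87), Mrvi1 (0.86), Gucy1b1 (0.86), Foxc2 (0.86), Col8a1 (0.85) and Cox4i2 (0.84). Gm13889 stood at 138 CPM in ND and 152 CPM in HFD smooth muscle-gated barcodes and at 18.1 and 26.4 CPM in pericyte-gated ones. Rgs4, a regulator of G protein signalling, had nearly the same level in both, at 85.8 and 80.2 CPM in ND. Each of the 8 genes with at least 200 UMIs is part of that mean, and Tagln had the highest r (0.96) and Smtn the lowest (0.71). The points share libraries and depth, and the correlation is a description.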

How the data were processed

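Aortic arch cells were measured in 1 ND and 1 HFD library. The authors deposited a raw UMI count per gene and barcode from Cell Ranger (3.0.1 in the file headers, with mm10 in the submitters' processing notes), without normalization, for all barcodes before filtering. The count of both libraries joined was not used here. Kept barcodes had at least 200 genes, 200 UMIs and at most 30% mitochondrial UMIs. UMIs were summed per group and divided by all its UMIs (CPM). Of the 14 gates for other cell types, those for endothelial cells, fibroblasts and macrophages asked for 4 markers, and barcodes passing several were left as mixed. Doublets were not removed in the main values; scores came from Scrublet in scanpy 1.11.5. Genes counted past 2-fold had at least 50 UMIs over both groups, and ratios of the 9 genes below that rest on few UMIs. Intervals are exact at 95% (Poisson for CPM, Clopper-Pearson for shares, conditional binomial for log2 ratios and for UMIs per 100 Acta2 UMIs). Median UMIs per barcode were 3732.5 and 5336, so shares were repeated after thinning to 1000 UMIs. With 1 library per diet there was no test.

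The 9 genes, the gates and the lists were chosen with earlier results of these data known. The rule for naming was all 9 genes, the 5 highest and 5 lowest log2 ratios of the pathway list, and the 10 genes most like the 9, with 1 pathway gene not reported here; other genes named were chosen after their values were seen. Positions come from GENCODE M21 (GRCm38) and promoters from RefSeq (GRCm38.p6). Simulated Poisson counts, made for the mural comparison of the diets with 200 of 8140 genes changed, were used to check the calculation. Of the intervals, 95.9%, and 94.0% of those of changed genes, held the true ratio. The intervals assume such counts, so this was built in. The uneven spread of UMIs over barcodes was not simulated, and how often intervals hold in the real sums was not tested. Alternatives changed the gates, filter, doublets, depth and scaling. Calculations used Python 3.11.15, numpy 2.4.6, scipy 1.17.1, pandas 2.3.3 and matplotlib 3.10.9.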

Additional observations from a re-analysis of the deposited data

Results flagged for a closer look

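Contractile RNA was also present in data outside the comparisons, the barcodes removed by the filter, above the limit that a count of 0 allows. Among 4818 removed ND barcodes 35 passed the mural gate, and among 11486 removed HFD barcodes 196 did. With mitochondrial UMIs left out of the total, Acta2 was at 3274 (2734 to 3891) CPM in the removed and 1615 CPM in the kept ND mural barcodes, and at 1115 and 1489 CPM in HFD. Myl9 was at 1142 and 572 CPM in ND, and at 982 and 331 CPM in HFD, so the removed HFD mural barcodes held more Myl9 than the kept ones. Myh11 was higher in the removed barcodes as well, at 838 (577 to 1176) and 388 CPM in ND and at 332 (269 to 405) and 160.2 CPM in HFD. In smooth muscle-gated barcodes it was at 3202 and 688 CPM in ND, from 7 removed barcodes, and at 1173 and 347 CPM in HFD. Of the removed HFD mural barcodes, 114 were pericyte-gated and 31 smooth muscle-gated.

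For 2 genes the ratio of HFD to ND lay on opposite sides of 0 in different cell types, with intervals that left out 0; the difference between cell types was not tested. Acta2 had a log2 ratio of 0.16 in smooth muscle-gated barcodes, -1.81 in pericyte-gated, -1.40 in endothelial-gated and -3.22 in fibroblast-gated ones. Tagln had 0.48 in smooth muscle-gated, -0.99 in endothelial-gated and -0.89 in fibroblast-gated barcodes. Both smooth muscle values turned to -0.58 and -0.38 without the barcodes over 15000 UMIs, and that of Acta2 was -0.02 without the HFD barcode of 61381 UMIs.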

How the results depend on the processing

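No paired analysis was possible because each diet had 1 library. Values are ND then HFD. With 1 marker fewer in every gate, mural barcodes were 14.9% and 16.2% of kept barcodes, with 73.1% and 79.0% of UMIs of the 9 genes, median log2 mural to other ratios of 4.53 and 4.98, and a median log2 HFD to ND ratio of -0.20. With 1 marker more they were 2.66% and 4.67%, with 58.9% and 67.4% of UMIs, a mural to other ratio of 6.14 in ND and an HFD to ND ratio of -1.03. Barcodes that passed no other gate were 0.609% and 0.292%, with 31.9% and 9.06% of UMIs and mural to other ratios of 8.13 and 8.21. Outside the fibroblast gate, a setting added after seeing the data, mural barcodes were 2.86% and 5.00%, with an HFD to ND ratio of -0.93. Smooth muscle-gated barcodes alone gave mural to other ratios of 5.95 and 6.79, a setting also added after seeing the data, and an HFD to ND ratio of -0.17. A gate of 3 other members gave -0.65, and the mean over single barcodes -0.86, with a mural to other ratio of 5.70 in ND.

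At 20% mitochondrial UMIs, mural barcodes were 7.42% and 9.05% with 65.5% and 79.5% of UMIs, and the ND mural to other ratio was 4.97. Without that limit they were 4.51% and 3.78% with 62.8% and 62.8% of UMIs, the HFD mural to other ratio was 5.46 and the HFD to ND ratio -0.21. Without the highest doublet scores, the shares of UMIs were 62.2% and 66.2%. Thinned to 1000 UMIs, with gates set again, mural barcodes were 1.55% and 2.37%, with 47.7% and 37.6% of UMIs, mural to other ratios of 6.78 and 5.40 and an HFD to ND ratio of -1.43. Further settings were added after seeing the data. Without barcodes over 15000 UMIs, the shares of UMIs were 65.6% and 63.5%, the ND mural to other ratio 5.54, the HFD to ND ratio -1.08 in mural and -1.07 in all kept barcodes. Without Smtn, the shares of UMIs were 80.2% and 86.9%. The cause of these shifts was not tested.

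The median HFD to ND ratio in mural barcodes was below 0 under every alternative run, from -1.43 to -0.17, but was 0.20 in the mural barcodes that also passed a gate other than the endothelial one alone, and 0.33 over 4 genes in other mural barcodes, subsets that were not among those alternatives. Without barcodes over 15000 UMIs these medians were -0.27 and -0.52. Without the HFD barcode highest in Acta2 in each subset, that of 21084 UMIs in the second, they were 0.13 and -0.49. These limits were also chosen after seeing the data. By gene, Myh11 was at least 2-fold lower in HFD under 15 of 15 alternatives (-1.98 to -1.03), though not in those subsets (0.33, and 0.20 from 7 and 5 UMIs), and Lmod1 under 12 of 15. Myl9, Tpm2 and Des were lower under 15 of 15, by less than 2-fold under most. Without the mitochondrial limit they were at -0.38, -0.10 and -0.05, against -0.87, -0.38 and -0.64 in the main values. Acta2 was lower under 13 of 15 (-1.81 to 0.16), and Tagln under 9 of 15 (-1.43 to 0.50), so its direction depends on the setting. Smtn was lower under 8 of 15. Of Cnn1 values, 10 of 14 alternatives gave lower values. Depth limits Cnn1, Des and Lmod1 most, and all groups of under 50 barcodes.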
